A study of Mus musculus with 12 samples.

Results

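The comparison described here is AA14 against vehicle in the pituitary of mice that carried a cre virus: 3 libraries of each, 6 of the 12 libraries in the series. They were chosen by their titles, cre_AA14 and cre_Vehicle with the numbers 1 to 3. All 6 carry the genotype label Cga-creAAVGpr101fl/fl, that is, floxed Gpr101 together with a cre-carrying virus, on the C57BL/6 strain. Vehicle or AA14, which the series names as its ligand, was given for 1 week. The pituitaries were then dispersed to single cells, and RNA from the cells was sequenced in bulk. The other 6 libraries have the genotype Cga-ctrlAAVGpr101fl/fl and the same pair of treatments, so vehicle-treated mice in both arms also carried the floxed gene and a virus. Cga is the gene of the glycoprotein hormone alpha subunit; the labels do not say whether it drives the cre, which cells the virus reached, or the age and sex of the mice. Each library is a mixture of pituitary cells, so fewer cells of a type and less RNA per cell cannot be told apart. Whether every library came from its own mouse is not labelled either, so each p-value describes variation between the libraries, part of which may be technical.

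GPR101 is an orphan G protein-coupled receptor of the X chromosome that couples to Gs and raises cyclic AMP. In somatotrophs, the growth hormone cells, cyclic AMP activates protein kinase A, which phosphorylates CREB. CREB binds the cyclic AMP response element, in its full form TGACGTCA, and induces genes such as Fos, Nr4a1 and Crem. Floxed Gpr101 is cut out where cre is active, so the question of the comparison is which genes differ with AA14 in mice whose receptor gene was targeted.

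To show the element next to the genes, promoter sequence was searched for TGACGTCA, which reads the same on both strands. It was present in 588 of 32851 RefSeq promoters (1.79%), each running from 250 bases before to 50 bases after a gene's start on GRCm38.p6. Of the list of cyclic AMP-induced genes used below, 17 tested members matched a promoter, and 3 of these held the motif upstream of the RefSeq start. Their 30-base windows, all on the minus strand, are at chr17:26508596-26508625 for Dusp1, chr1:79440075-79440104 for Scg2 and chr16:23890873-23890902 for Sst, written 5′ to 3′ with the motif in capitals. A GENCODE M21 gene model starts further upstream for Scg2 and Sst, and there the windows lie in its first exon.
Dusp1: gtagggcgggTGACGTCAccgcccggtcac
Scg2: gctgagccggTGACGTCAgcgtggaatgcg
Sst: cctccttggcTGACGTCAgagagagagttt

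In the cre-virus mice no gene passed the adjusted threshold of the edgeR test between AA14 and vehicle. The quasi-likelihood test of edgeR with Benjamini-Hochberg adjustment called 0 of 22630 genes at an adjusted p under 0.05 (0.0%), and 519 genes (2.29%) had an unadjusted p under 0.05, where 1132 would be expected by chance alone. Of these, 272 were higher (1.2%) and 247 lower (1.09%). limma-voom with quality weights called 0 genes and had 1213 at an unadjusted p under 0.05. DESeq2 called 14 of 34594 genes (0.0405%), 3 higher and 11 lower. The 3 AA14 libraries lay above all 3 vehicle libraries for 752 genes (3.32%) and below them for 574 (2.54%). Over all genes tested, 49.7% had a positive log2 fold change (AA14 minus vehicle) and the median was -0.002. Among the 3614 genes of at least 50 CPM (CPM, counts scaled to library size with TMM factors), 151 lay above without overlap (4.18%), 41 below (1.13%), and 55.5% were positive. Values below are therefore descriptions of libraries, with each log2 fold change (log2FC) followed by its standard error (SE).

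The 6 libraries held 48693682 to 73388221 counts, with the lowest total in cre vehicle 1 and the highest in cre vehicle 2. Hormone genes took 19.96% to 28.96% of their counts, and the hormone genes of all the endocrine cell types of the anterior pituitary were present. The nuclear RNA Malat1 split the libraries in a way that crosses the groups: it was at 1391 CPM in cre vehicle 1 and 1105 in cre AA14 2, against 330.7 to 381.9 in the other 4. Over 10665 genes of at least 10 CPM, the deviations of these 2 libraries from their own group means correlated at 0.74. A further 2 libraries stood apart in single genes. Among 11820 genes of at least 5 CPM, 264 were more than 2-fold above all other 5 libraries in cre vehicle 2 and 90 in cre AA14 1, against 4 to 9 in each of the others. Xist reached at most 0.404 CPM, and the Y-linked gene Ddx3y was expressed in all 6.

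Gpr101, the targeted gene, was low in both groups. Its level was 2.43, 4.30 and 1.29 CPM in cre vehicle 1, 2 and 3 and 2.57, 2.43 and 0.901 CPM in cre AA14 1, 2 and 3. The groups overlapped, and the log2FC was -0.44 (SE 0.89; edgeR adjusted p = 0.9999). In the control-virus mice the 6 levels ran from 1.22 to 16.1 CPM, so counts over the whole gene do not separate the viruses cleanly and do not measure the excised part.

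The hormone genes overlapped between AA14 and vehicle. Gh, growth hormone, was at 211643, 110913 and 164392 CPM with vehicle and at 99590, 218024 and 203886 CPM with AA14. One AA14 library was the lowest of all 6 and another the highest, and the log2FC was 0.10 (SE 0.32). Prl, prolactin of the lactotrophs, was at 31140, 59387 and 73783 CPM with vehicle and at 91939, 33636 and 72999 CPM with AA14. Its 2 lowest values were those of the Malat1-rich libraries, 1 from each group, and its log2FC was 0.27 (SE 0.40). Pomc, the precursor of adrenocorticotropic and melanocyte-stimulating hormone, ranged from 18648 to 20902 CPM with vehicle and was at 40763, 12377 and 25212 CPM with AA14. The vehicle values sat inside the AA14 range (log2FC 0.38, SE 0.41). The glycoprotein hormone subunits gave log2FC of 0.22 for Cga (SE 0.28), 0.17 for Tshb (SE 0.36), 0.18 for Lhb (SE 0.21) and 0.15 for Fshb (SE 0.27). All 7 hormone genes were thus positive, with a median of 0.18, and none was without overlap. Their direction rested on cre vehicle 2, which had the lowest value of Cga, Tshb, Lhb and Fshb: without it 2 of 7 were positive and the median was -0.01.

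**Figure D1:**
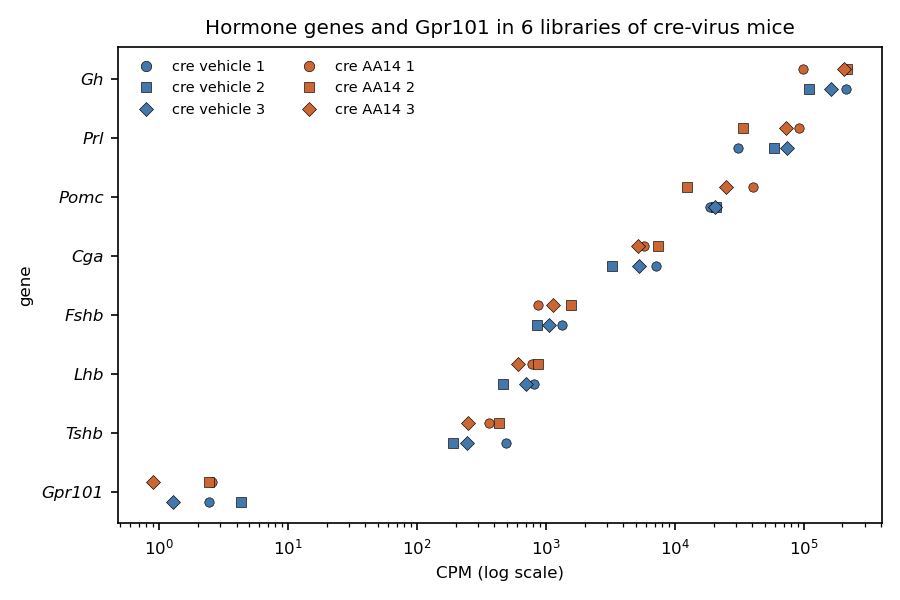
Levels of 7 hormone genes and Gpr101 in each of the 6 cre-virus libraries, in CPM on a log axis; colour marks the treatment and the symbol the library number. The AA14 and vehicle points overlap for every gene, and Gpr101 lies between 0.901 and 4.30 CPM.

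Other genes of the somatotroph showed the same overlap. Of 10 tested somatotroph genes, 6 were positive, with a median of 0.05 and no member without overlap; leaving out 1 library gave medians from -0.10 to 0.13. Ghrhr, through which the hypothalamic releasing hormone acts on somatotrophs, was at 316.4, 90.62 and 134.9 CPM with vehicle and 147.2, 241.5 and 128.4 CPM with AA14. Pou1f1, the transcription factor of somatotrophs, lactotrophs and thyrotrophs, was at 193.9, 152.6 and 173.7 CPM with vehicle and 148.7, 257.6 and 175.1 CPM with AA14. In both genes the Malat1-rich library of each group was the highest of that group. Sstr2, a receptor for the inhibitory hormone somatostatin, was at 1.76, 1.77 and 1.40 CPM with vehicle and 2.80, 2.47 and 2.23 CPM with AA14. These 2 ranges did not overlap (log2FC 0.61, SE 0.30; edgeR adjusted p = 0.9999), at levels under 3 CPM. The AA14 libraries lay above all vehicle libraries for 3.32% of all genes, and Sstr2 is not among the 10 somatotroph genes counted above.

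The components between receptor and CREB leaned slightly lower with AA14, with no member past the test. Of 30 tested genes for Gs subunits, adenylyl cyclases, protein kinase A, its inhibitors, Epac and CREB coactivators, 8 were positive, the median was -0.14, and 0 were without overlap in either direction. Gnas, which encodes the Gs alpha subunit, was at 3046, 3797 and 4114 CPM with vehicle and at 5976, 2729 and 3331 CPM with AA14. Both the highest and the lowest of the 6 values were AA14 libraries (log2FC 0.14, SE 0.25). Adcy6, an adenylyl cyclase, was at 179.7, 148.0 and 167.8 CPM with vehicle and 147.1, 155.3 and 154.9 CPM with AA14, which overlapped (log2FC -0.12, SE 0.15). Creb1 was at 62.95, 63.75 and 58.57 CPM with vehicle and 25.34, 74.71 and 50.05 CPM with AA14. The 16 cyclic AMP phosphodiesterases, which break the messenger down, had 7 positive members and a median of -0.02, and without cre vehicle 2 they had 10 and 0.08. Without cre vehicle 2, the Gs pathway list had 19 of 30 positive and a median of 0.09.

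The cyclic AMP-induced target genes were higher on balance only through cre AA14 1. Of 22 tested members 16 were positive, with a median of 0.40, while 6 were positive and the median was -0.21 when that library was left out. Fos was at 37.71, 19.84 and 60.90 CPM with vehicle and at 662.2, 102.2 and 5.33 CPM with AA14. Nr4a1, an orphan nuclear receptor, was at 58.64, 390.8 and 251.3 CPM with vehicle and 1123, 104.5 and 305.4 CPM with AA14. Crem, which encodes the repressor ICER among its products, was at 53.71, 48.38 and 52.16 CPM with vehicle and 89.03, 70.80 and 47.10 CPM with AA14. In these 3 genes cre AA14 1 was the highest of the 6 libraries and the groups overlapped. Of the 3 genes whose windows are printed above, Scg2, the granin secretogranin II, was the 1 member of the list without overlap. That is 4.5% of the list, near the 3.32% of all genes and 4.18% of genes of at least 50 CPM. Scg2 was at 4421, 3575 and 4182 CPM with vehicle and 5066, 4448 and 4489 CPM with AA14. The gap was narrow (log2FC 0.20, SE 0.15; edgeR adjusted p = 0.9999). Dusp1, a phosphatase of MAP kinases, was at 48.98, 118.2 and 134.8 CPM with vehicle and 606.6, 117.2 and 25.34 CPM with AA14, so it had both extremes among the AA14 libraries (log2FC 1.31, SE 1.04). Sst, somatostatin, was at 19.63 CPM in cre vehicle 2 and at most 0.123 CPM in the other 5.

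Genes with the element in the promoter had a median close to that of genes without it. Of 14084 tested genes matched to a promoter, 438 held TGACGTCA (3.11%); their median log2FC was 0.015, against -0.015 for the 13646 without it. The AA14 libraries lay above all vehicle libraries for 17 of the 438 (3.88%) and below them for 3 (0.685%), against 2.75% and 2.53% of genes without the motif. The members above included Rpl26 and Rpl27a of the ribosome, Scg2, Sstr2 and the small GTPase genes Rap1b and Cdc42, and those below Kif18a, a mitotic kinesin, and Hhip, a hedgehog-binding protein. Rap1b was at 91.34, 100.7 and 101.3 CPM with vehicle and 139.1, 114.7 and 110.3 CPM with AA14. The members were named after their values were seen.

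The single gene with the smallest p was Klhl20, which encodes a substrate adaptor of a cullin-3 ubiquitin ligase and lies at chr1:161088375-161131511 (GRCm38, minus strand). It was at 21.41, 21.10 and 19.01 CPM with vehicle and at 10.29, 10.86 and 11.0 CPM with AA14. The groups were far apart for their spread, with means of 20.5 ± 1.31 and 10.7 ± 0.376 CPM (SD, n = 3 each). The log2FC was -0.94 (SE 0.15), with an edgeR adjusted p of 0.9999. DESeq2 gave an adjusted p of 3.16e-05, the lowest of 17 alternatives, whose adjusted p-values reached 1.0. Leaving out any 1 cre library gave a log2FC between -0.99 and -0.91. The control-virus libraries share the fit but not the comparison. In them Klhl20 was at 19.17, 18.50 and 18.20 CPM with vehicle and 14.95, 10.95 and 13.42 CPM with AA14. There too the groups did not overlap (log2FC -0.51, edgeR adjusted p = 0.1406), but the share of all genes without overlap in those libraries was not counted. The difference between the AA14 effects with the cre and control virus was -0.43 (edgeR adjusted p = 0.631).

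Wrb, at chr16:96145407-96157852 on the plus strand, encodes a membrane receptor that inserts tail-anchored proteins into the endoplasmic reticulum. It was at 28.07, 28.26 and 19.77 CPM with vehicle and at 5.05, 7.58 and 7.28 CPM with AA14. All 3 AA14 values were under the lowest vehicle value, and the log2FC was -1.93 (SE 0.38; edgeR adjusted p = 0.9999). DESeq2 gave an adjusted p of 0.00169, and the other 16 alternatives gave adjusted p-values up to 1.0. With the control virus its AA14 and vehicle ranges overlapped, at 28.12, 25.73 and 8.78 CPM against 18.53, 19.48 and 12.60 CPM. The difference between the AA14 effects in the 2 virus groups was -2.24 (edgeR adjusted p = 0.631). Another gene covers 11.6% of its exon length, so its counts are less certain.

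Nanp, at chr2:151029685-151039398 on the minus strand, encodes a phosphatase of sialic acid synthesis. It had 0 counts in all 3 vehicle libraries and 233, 495 and 302 counts with AA14. Against a floor of 3 counts over the vehicle group, the AA14 level of 6.07 CPM was at least 362-fold higher. The gene was also uneven outside this comparison, with 548, 4 and 4 counts in the control-virus vehicle libraries and 1094, 580 and 937 with AA14. Exon overlap with another gene was 9.8%. DESeq2 called it, and edgeR did not (adjusted p = 0.9999).

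By rank, 12 genes higher and 12 lower with AA14 had the smallest p among those without overlap, with edgeR adjusted p-values of 0.9999. Since the rule asks for no overlap, the gap between groups is not a finding in itself. Among the higher genes were Pja1 and Senp8 of the ubiquitin and NEDD8 systems, and Rack1 and Rps10 of the small ribosomal subunit. Hax1, a mitochondrial anti-apoptotic factor, was at 37.17, 36.46 and 29.44 CPM with vehicle and 61.82, 45.81 and 53.41 CPM with AA14 (log2FC 0.64, SE 0.16). Rack1, a scaffold on the ribosome, was at 479.1, 468.4 and 637.4 CPM with vehicle and 951.9, 651.6 and 857.3 CPM with AA14 (log2FC 0.64, SE 0.18). In Rack1 the lowest AA14 value was just above the highest vehicle value. Far1, the peroxisomal reductase of ether lipid synthesis, was at 33.34, 31.90 and 28.04 CPM with vehicle and 50.12, 67.24 and 58.12 CPM with AA14 (log2FC 0.91, SE 0.26). Pja1, a RING ubiquitin ligase of the X chromosome, was at 72.66, 64.49 and 50.65 CPM with vehicle and 85.62, 119.4 and 110.7 CPM with AA14 (log2FC 0.75, SE 0.21). Senp8, a protease of the ubiquitin-like protein NEDD8, had a log2FC of 1.18 (SE 0.32), and its lowest AA14 value of 19.83 CPM was near the highest vehicle value of 16.06 CPM.

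The remaining higher genes included a pair of chromatin proteins. Qrich1, a regulator of the unfolded protein response, had a log2FC of 0.57 (SE 0.15), and Hmgb3, a chromatin protein, 0.63 (SE 0.20). Gatad2b, a subunit of the NuRD chromatin complex, was at 8.23, 14.57 and 14.67 CPM with vehicle and 19.37, 48.21 and 61.01 CPM with AA14 (log2FC 1.78, SE 0.55). Its AA14 values differed more than 2-fold among themselves. Cd84, a leukocyte receptor, was under 4 CPM in all 6 libraries (log2FC 0.78, SE 0.24). Rps10 was at 131.5, 123.0 and 152.1 CPM with vehicle and 374.8, 246.0 and 168.4 CPM with AA14 (log2FC 0.96, SE 0.31), and other genes cover 28.7% of its exon length.

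Sco2 and Tymp are neighbours that share exon sequence on chromosome 15 and differed in opposite directions. Sco2, a copper chaperone of cytochrome c oxidase at chr15:89371637-89373846, is overlapped by other genes over 100% of its exon length, and Tymp, thymidine phosphorylase at chr15:89371931-89377039, over 68.3%. Both are on the minus strand, so a strand setting would not separate them. Sco2 was at 1.07, 1.22 and 0.446 CPM with vehicle and 4.67, 3.81 and 4.84 CPM with AA14 (log2FC 2.28, SE 0.61). Tymp was at 6.17, 6.77 and 8.40 CPM with vehicle and 2.74, 2.23 and 2.10 CPM with AA14 (log2FC -1.59, SE 0.50). How reads in the shared exons were assigned is not given in the sources used here, and these 2 values are uncertain for that reason.

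The lower genes included a potassium channel, a phospholipase C, a small GTPase and a pair of transcription factors. Kcnn3, a calcium-activated potassium channel, was at 13.45, 20.51 and 13.98 CPM with vehicle and 5.48, 9.45 and 8.32 CPM with AA14 (log2FC -1.05, SE 0.25). With the control virus its log2FC was -1.10. Plch1, a phospholipase C, had a log2FC of -0.51 (SE 0.17), and Rasl12, a small GTPase, -1.0 (SE 0.25) at levels under 4 CPM. Foxp2, a forkhead transcription factor, was at 16.88, 16.31 and 17.57 CPM with vehicle and 11.67, 13.04 and 11.60 CPM with AA14. The spread of Foxp2 within each group was small against the gap (log2FC -0.48, SE 0.16). Rbm33, an RNA-binding protein, was at 80.08, 53.57 and 54.07 CPM with vehicle and 49.02, 19.33 and 31.50 CPM with AA14 (log2FC -0.91, SE 0.30). Zfat, a zinc-finger transcription factor, had a log2FC of -0.74 (SE 0.24). Tuba4a, an alpha tubulin with 37.3% of its exon length shared, had -1.10 (SE 0.37), and Mpv17l, a membrane protein of the Mpv17 family, -0.74 (SE 0.25). Fam78a, also with shared exon sequence (22.5%), had -1.24 (SE 0.40).

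The control-virus libraries entered the choice of these 24 genes only through the filter, scaling and spread estimate of the shared fit. In them 8 of the 12 higher and 8 of the 12 lower genes had the same sign. The share of all genes with the same sign was not counted. The test of the difference between the AA14 effects in the 2 virus groups gave an unadjusted edgeR p under 0.05 for 7 of the higher and 3 of the lower genes, with a smallest adjusted p of 0.631; it shares the libraries by which they were chosen. Over all genes, that test called 1 gene (0.00442%), the predicted gene Gm47308, and 1591 genes (7.03%) had an unadjusted p under 0.05.

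**Figure D2:**
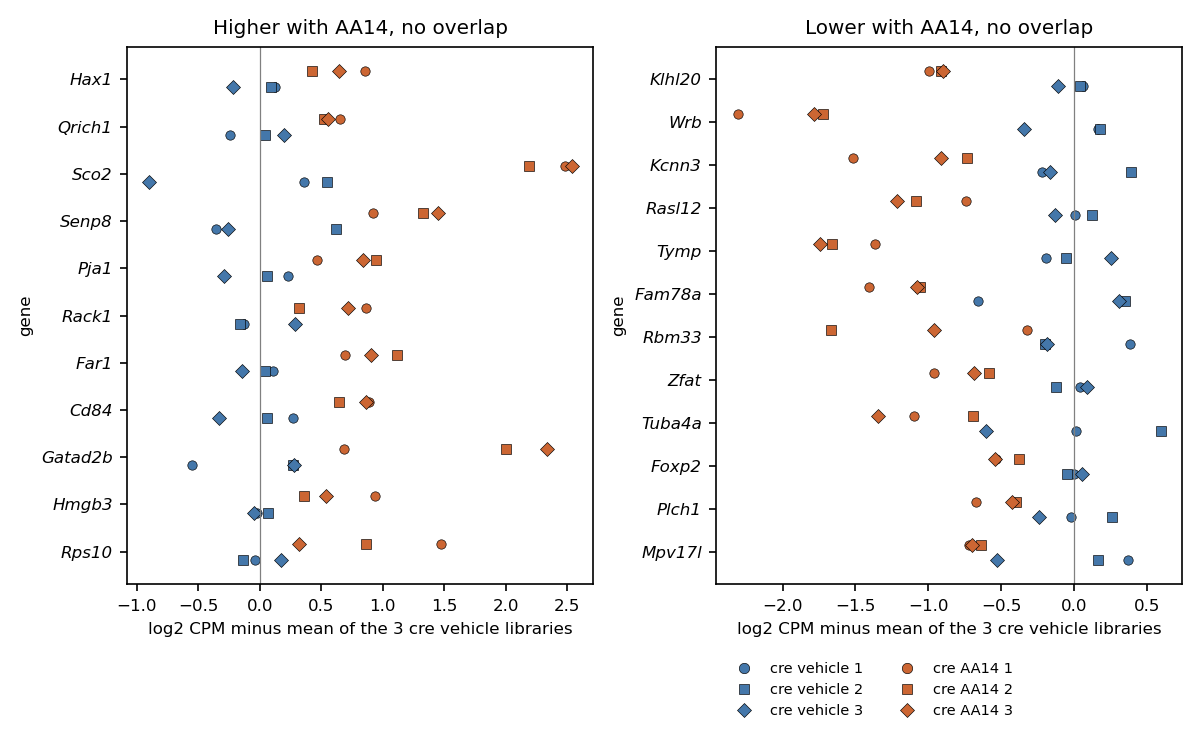
The ranked genes without overlap between groups, higher with AA14 on the left and lower on the right; each point is 1 library as log2 CPM minus the mean log2 CPM of the 3 cre vehicle libraries. Nanp is not drawn because its vehicle level was 0; Klhl20 and Foxp2 show tight groups, while Gatad2b and Rps10 spread among the AA14 libraries.

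The cytosolic ribosomal protein genes leaned higher with AA14, by a small amount. Of 77 tested, 75 had a positive log2FC with a median of 0.30, 17 lay above without overlap (22.1%, against 4.18% of genes of at least 50 CPM) and 0 below. By edgeR, 10 were higher at an unadjusted p under 0.05, as were 1.2% of all genes, and 0 passed adjustment. The mean log2 level of the list was 8.4, 8.34 and 8.62 in cre vehicle 1, 2 and 3 and 8.94, 8.51 and 8.73 in cre AA14 1, 2 and 3. The highest vehicle library was therefore above the lowest AA14 library, and the list as a whole overlapped. Rpl35a was at 205.4, 175.7 and 212.4 CPM with vehicle and 318.0, 244.6 and 230.6 CPM with AA14 (log2FC 0.42, SE 0.17). Rps23 was at 543.2, 508.5 and 617.3 CPM with vehicle and 833.4, 643.6 and 686.3 CPM with AA14 (log2FC 0.37, SE 0.15). Both genes were highest in cre AA14 1. Rpl41 was instead highest in cre AA14 3, at 1100 CPM against 438.5 to 560.1 CPM with vehicle (log2FC 0.69, SE 0.23). Rpl26 and Rps15a had log2FC of 0.40 (SE 0.18) and 0.39 (SE 0.16). Rpl29 went against the rest, at 129.8, 134.0 and 163.5 CPM with vehicle and 6.22, 139.7 and 180.4 CPM with AA14, so that only cre AA14 1 was low (log2FC -0.39, SE 0.78).

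**Figure D3:**
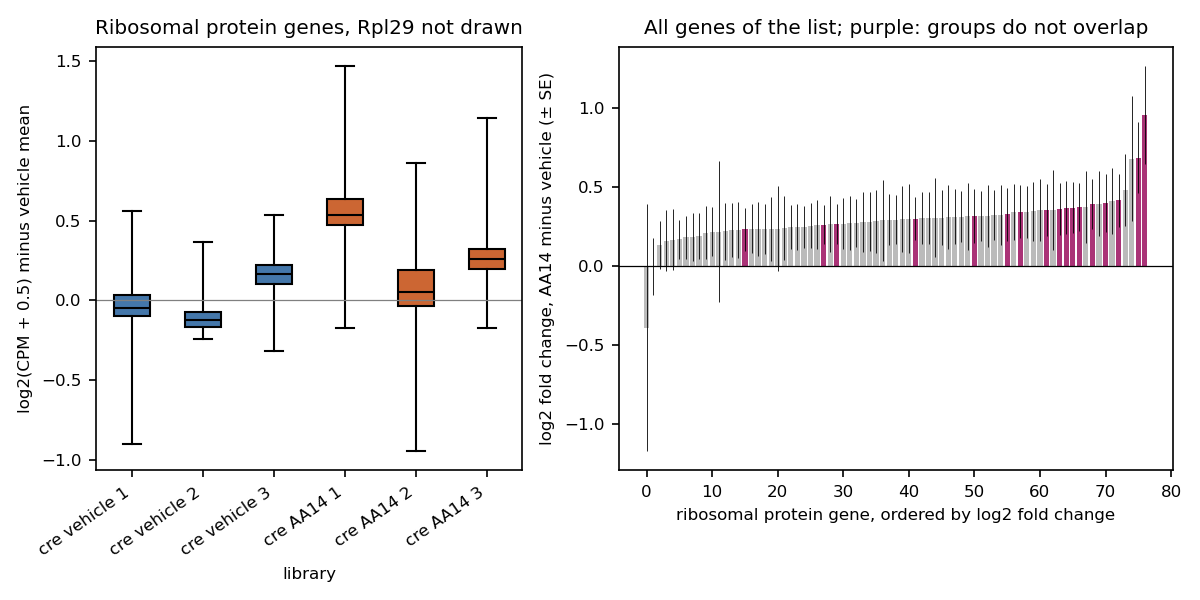
Left, cytosolic ribosomal protein genes other than Rpl29 in each library, as log2(CPM + 0.5) minus the vehicle mean of each gene (box, quartiles and median; whiskers, full range). Right, the log2FC of all 77 genes with its SE; 75 bars are above 0, and purple bars are the 17 genes whose groups do not overlap.

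The size of that shift followed 1 library. Without cre AA14 1 the median was 0.14 with 73 of 77 positive, and without both cre AA14 1 and cre vehicle 2 it was 0.08 with 71 positive. Within the pair of Malat1-rich libraries the median difference was 0.11 (69 of 77 positive), and within the other 4 it was 0.38 (75 of 77). In the control-virus mice the median was -0.02 with 34 positive. The difference between the AA14 effects had a median of 0.33 over the list, against 0.103 over genes of at least 50 CPM, and 4 of the 77 had an unadjusted edgeR p under 0.05, a share under the 7.03% of all genes. Many ribosomal protein genes have near-identical pseudogene copies, and how reads shared with them were counted is not given in the sources used here. The list of translation factors and related genes had 23 of 26 positive with a median of 0.16, against 17 and 0.08 without cre AA14 1. Its 3 members above without overlap were the related genes Naca, Nop10 and Ncl. They were 11.5% of the list, against 3.32% of all genes and 4.18% of genes of at least 50 CPM.

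The 45 nuclear genes of the respiratory chain had 23 positive and a median of 0.00. Without cre vehicle 2 they had 41 positive and a median of 0.11, and without both that library and cre AA14 1 31 positive and 0.05. Of the 45, 7 lay above without overlap (15.6%, against 3.32% of all genes and 4.18% of genes of at least 50 CPM) and 0 below. These were Ndufa2, Ndufa6, Ndufb5, Sdhd, Uqcrc2, Cox6b1 and Cox8a, named here because of their values. Ndufa6, of complex I, was at 64.14, 63.50 and 67.36 CPM with vehicle and 87.62, 81.95 and 72.69 CPM with AA14. The 13 protein genes of the mitochondrial genome had 1 positive and a median of -0.15. Without cre AA14 1 they had 6 positive and a median of -0.01, without both that library and cre vehicle 2 10 positive and 0.05, and in limma-voom 9 positive and 0.04. mt-Nd5, a core subunit of complex I, was at 6503, 6823 and 5434 CPM with vehicle and 1222, 5610 and 7146 CPM with AA14. Its low value was again in cre AA14 1.

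Of the 40 lists, inflammation and immediate-early genes had the highest medians, and these came from cre AA14 1. All 17 tested inflammation genes were positive, with a median of 2.86 and 13 higher at an unadjusted edgeR p under 0.05, as were 1.2% of all genes; without cre AA14 1 the median was 0.10 and 11 were positive. Of 24 immediate-early and dissociation genes, 22 were positive with a median of 1.74; without that library 8 were positive and the median was -0.22. Atf3, a transcription factor of the cellular stress response, was at 1.38, 1.10 and 1.98 CPM with vehicle and 174.5, 2.14 and 1.13 CPM with AA14. Junb, of the AP-1 family, was at 63.56, 92.33 and 121.8 CPM with vehicle and 1357, 117.2 and 42.03 CPM with AA14. The other two AA14 libraries were within or near the vehicle range in both genes. Hspa1b, the inducible heat shock protein 70, was at 3.70, 18.99 and 21.20 CPM with vehicle and 761.6, 7.33 and 7.92 CPM with AA14. Ptgs2, cyclooxygenase 2, was at 0.263, 0.950 and 0.277 CPM with vehicle and 57.12, 0.326 and 0.751 CPM with AA14. Cxcl1, a neutrophil chemokine, was at 29.78 CPM in cre AA14 1 and at most 0.404 CPM in the other 5. The log2FC were 5.32 for Atf3 (SE 1.57), 4.14 for Hspa1b (SE 1.79) and 5.27 for Ptgs2 (SE 1.57). They were 6.09 for Cxcl1 (SE 2.16) and 2.45 for Junb (SE 1.17), and all of these are those of 1 library. Fos (log2FC 2.70, SE 1.37) was also highest in cre AA14 1, but cre AA14 2 too lay above all vehicle libraries and cre AA14 3 below them. Leaving out 1 library gave 0.43 to 3.27 for Fos, and limma-voom -1.13. Genes of this kind can be induced while tissue is dispersed; the part of dissociation in these values was not tested.

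**Figure D4:**
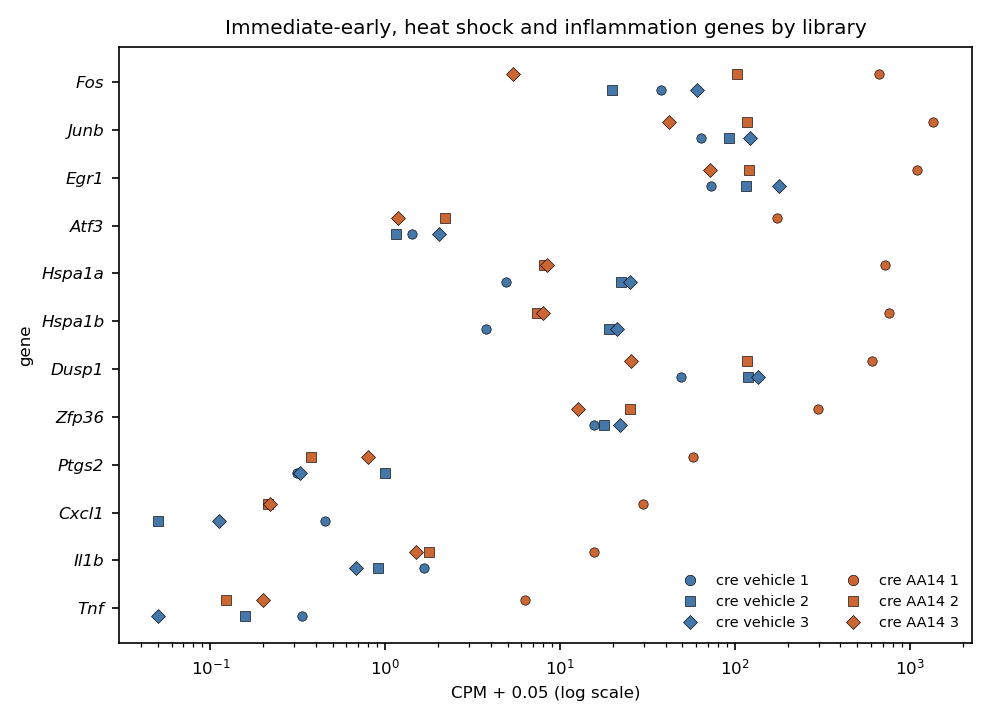
Levels of 12 immediate-early, heat shock and inflammation genes in the 6 cre-virus libraries, as CPM + 0.05 on a log axis. The circle of cre AA14 1 lies to the right of all other points in every gene, with the other two AA14 libraries far to its left.

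Markers of other cells also moved with single libraries. The 9 oligodendrocyte markers were all negative, with a median of -3.11, and without cre vehicle 2 the median was 0.65 with 8 positive. Mbp, myelin basic protein, was at 21.88, 1384 and 60.06 CPM with vehicle and 234.9, 22.68 and 60.35 CPM with AA14. Their summed level was 3348 CPM in cre vehicle 2, 466.9 in cre AA14 1 and 77.56 to 164.6 CPM in the other 4. The 11 neuron markers were negative in all 11 members (median -0.75), against 5 positive and a median of -0.01 without cre vehicle 2. Without both that library and cre AA14 1 they had 0 positive and a median of -0.27, and in limma-voom 0 and -0.49. Their summed level was 1569 CPM in cre vehicle 2 and 561.1 to 653.7 CPM in the others. Cplx1, a complexin of synaptic vesicle release, was at 298.9 CPM in cre vehicle 2 and at most 4.75 CPM elsewhere. The 7 red cell genes were all negative (median -0.70, or -0.25 without cre AA14 1): Hba-a1, alpha globin, was at 185.6 CPM in cre AA14 1 and at 960.8 to 2529 CPM in the other 5. The part of admixed nervous tissue or blood in the other results was not tested.

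The medians or counts of the immune cell and interferon lists moved with single libraries. Of 11 macrophage markers 9 were positive with a median of 0.10, against 5 without cre AA14 1. Cd68, a lysosomal marker, was the 1 without overlap (9.1%, against 3.32% of all genes). It was at 7.28, 6.29 and 7.34 CPM with vehicle and 9.95, 9.83 and 7.57 CPM with AA14 (log2FC 0.39, SE 0.19). Of 20 interferon response genes 16 were positive with a median of 0.17, which was 0.44 without cre vehicle 1 and 0.06 without cre vehicle 2. Most stayed positive whichever library was left out, from 13 without cre vehicle 2 to 18 without cre vehicle 1. Isg15, a ubiquitin-like protein induced by interferon, was the 1 without overlap (5.0%, near the 3.32% of all genes). It was at 2.43, 2.13 and 1.45 CPM with vehicle and 4.40, 3.48 and 2.70 CPM with AA14 (log2FC 0.82, SE 0.36). The 12 lymphocyte markers had 4 positive and a median of -0.42, against 7 and 0.12 without cre vehicle 1, with summed levels of 51.62 and 34.59 CPM in the Malat1-rich cre vehicle 1 and cre AA14 2 and 14.20 to 20.97 CPM in the other 4.

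**Figure D5:**
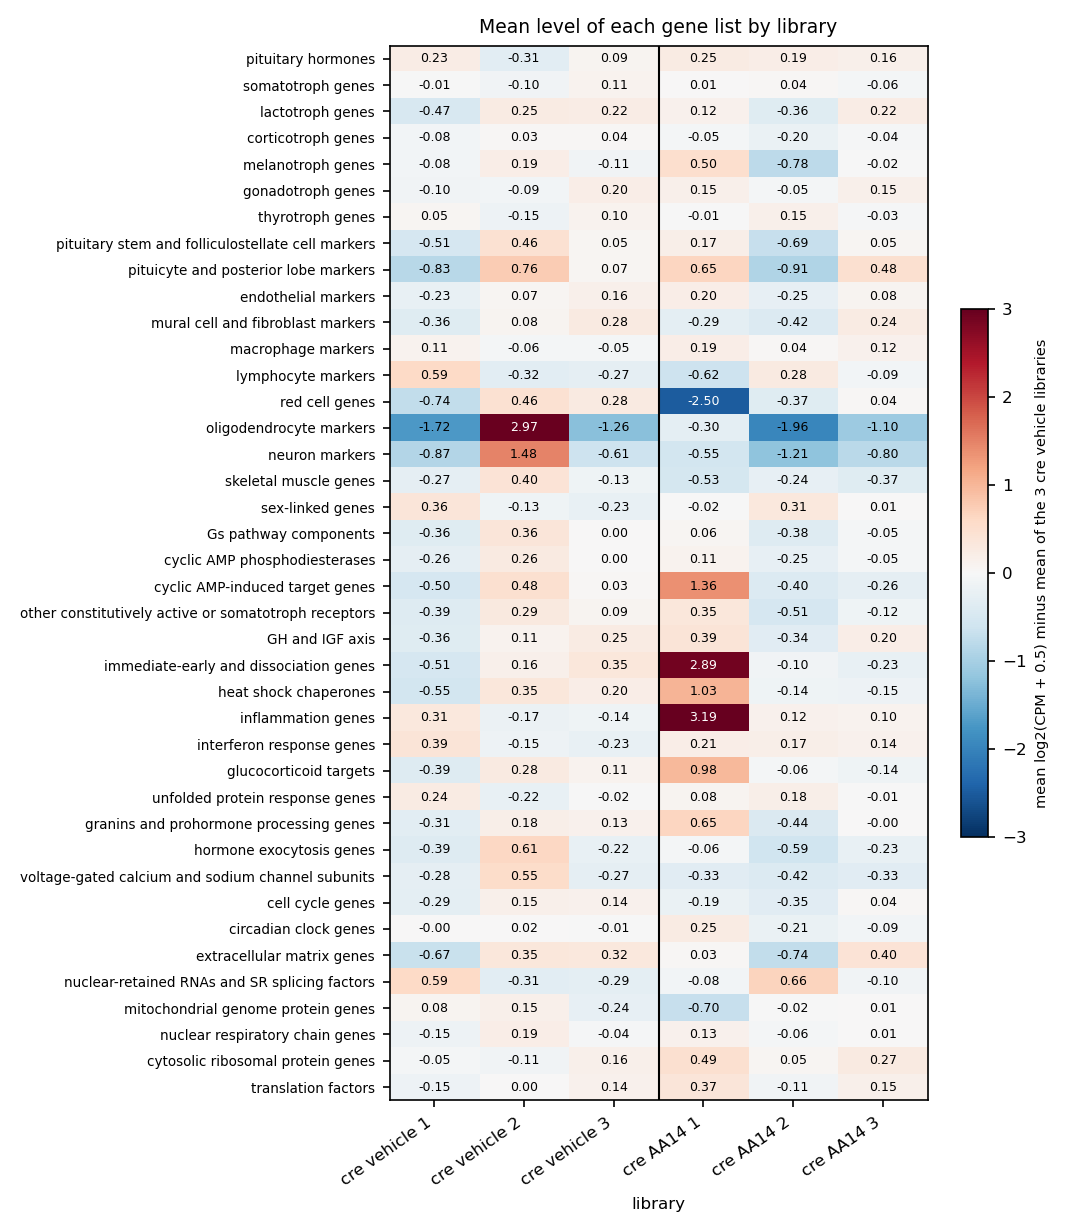
Mean log2(CPM + 0.5) of each of 40 gene lists in each library, minus the mean of the 3 cre vehicle libraries; red is higher and blue lower. The strongest cells are in single libraries: inflammation genes at 3.19 and red cell genes at -2.50 in cre AA14 1, and oligodendrocyte markers at 2.97 in cre vehicle 2.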

How the data were processed

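Bulk RNA was counted in 12 pituitary libraries, for which the authors deposited raw whole-number gene counts. The labels' protocols name TRIzol extraction, a NEBNext Ultra kit, paired reads from a NovaSeq platform and mapping with hisat2 2.0.0. The submitters' processing notes add featureCounts 1.5.0-p3, DESeq 1.8.3 and the build GRCm38. Which annotation release and strand setting were used, and what was done with reads shared between genes, is not given in these sources. Symbols were matched for 55154 of 55421 gene IDs; the rest made up 0.0135% or less of any library. Positions are from GENCODE M21, promoters from RefSeq.

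Genes were kept with filterByExpr (22630 left), scaled with TMM and tested with the quasi-likelihood F test of edgeR 4.0.16 in R 4.3.3, with 1 mean for each of the 4 groups over all 12 libraries, a Benjamini-Hochberg threshold of 0.05 on every fold size. The SE of a log2FC is its absolute value over the root of F; the median SE at 1 CPM or more was 0.26, and the common biological coefficient of variation was 0.445. Depth was 48693682 to 73388221 counts, at which 3 counts are 0.0409 to 0.0616 CPM. Intervals and floors cover counting error only. An exact permutation test of 3 against 3 libraries cannot go below p = 0.1. No 2 libraries of a group agreed within counting noise (median chi-square 8.16 to 89.5 over 10665 genes). Alternatives were DESeq2 1.42.0, limma-voom 3.58.1 with quality weights, other scaling and filters, a fit of the 6 cre libraries alone and with a term for Malat1, a replicate block, and leaving out libraries. The script was tested on simulated data.

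Genes are named by these rules: Gpr101 and 7 hormone genes; in each direction the 12 of smallest p with no clone-style symbol, no overlap and on average 1 CPM or more in the 6 libraries; DESeq2 calls; the most abundant and most changed members of each of 40 lists; and the genes that stand out most in each library. The text gives some of these, and says where others were named after their values were seen. The members and lists were chosen with earlier results of these data known.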

Additional observations from a re-analysis of the deposited data

How the results depend on the processing

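No gene passed edgeR's adjusted threshold under RLE scaling, scaling without the hormone genes, either other filter, the fits of the 6 cre libraries, the replicate block, or without both Malat1-rich libraries; leaving out 1 library gave 0 to 2 calls (Gm2792 without cre vehicle 2; Retreg3 and Hsp25-ps1 without cre AA14 1), leaving out cre vehicle 2 with cre AA14 1 gave 1, and DESeq2 14, most at 0 counts in several libraries. Genes at an unadjusted p under 0.05 numbered 351 to 1462 when 1 library was left out (1462 without cre vehicle 1), 935 without both Malat1-rich libraries, 321 with at least 1 CPM in 3 libraries, 284 in the fit of the 6 cre libraries and 1213 in limma-voom. Same-numbered libraries deviated together at -0.50, -0.57 and 0.27, which shows no pairing by number. The Malat1 split enters these values, so they cannot show that a pairing was absent. In edgeR the replicate block gave 0 calls, 358 genes at an unadjusted p under 0.05 and 1 gene for the difference between AA14 effects. For that difference limma-voom gave 0 genes and DESeq2 27. RLE scaling, added after the data were seen, gave 653 and 618 genes without overlap.

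Of 51 genes with a log2FC in the text, 16 changed sign in at least 1 alternative. None of the 24 ranked genes was among them, which their choice for no overlap fixes where libraries are left out. Without cre vehicle 2 and cre AA14 1 the sign turned for Pomc (-0.08), Tshb (-0.13), Lhb (-0.06), Cga (-0.0026), Rpl29 (0.11), Atf3 (-0.05), Hspa1b (-0.73), Cxcl1 (-0.48), Junb (-0.23), Dusp1 (-0.37) and Gnas (-0.26), and in limma-voom for Fos (-1.13), Junb (-0.22), Dusp1 (-1.06) and Gnas (-0.12). DESeq2 called Nanp (10.98), Klhl20 (-0.96) and Wrb (-1.96). Leaving out 1 library gave -0.77 to 0.09 for Gpr101, -0.11 to 0.37 for Gh, -0.05 to 0.58 for Prl, -0.10 to 0.71 for Pomc, -0.08 to 0.66 for Tshb, -0.01 to 0.35 for Lhb, -0.11 to 0.32 for Fshb, -0.03 to 0.50 for Cga, -0.98 to 0.16 for Rpl29, -0.95 to 4.71 for Hspa1b, -0.23 to 2.99 for Junb, -0.52 to 1.84 for Dusp1 and -0.28 to 0.34 for Gnas. The median of 11 of 40 lists moved by more than the spread between libraries in at least 1 alternative. The median SE was 0.26, and changes well above it also went uncalled. Even Klhl20, at a log2FC of -0.94 (SE 0.15), did not pass edgeR's adjusted threshold. With 3 libraries a group, the lack of calls does not show a lack of change.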

Other observations

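Some genes were present in single libraries and near 0 in the rest, across both treatments. Over the 6 cre-virus libraries, 162 genes had 0 counts in at least 1 library and at least 2 CPM in another, and for 47 of these another gene covers at least 10% of the exon length. Chtf8, of the alternative clamp loader for sister chromatid cohesion, was at 55.77 CPM in cre AA14 2 and at most 1.03 CPM in the other 5; its exons are fully shared with other annotated genes. Pcdhgb8, a gamma protocadherin with fully shared exons, was at 136.2 CPM in cre AA14 3 and at most 4.32 CPM elsewhere. Hist2h2aa1, a histone gene with shared exons, was at 62.14 CPM in cre vehicle 3, 26.76 CPM in cre AA14 2 and 0 in the other 4. Igha, the heavy chain of immunoglobulin A, was at 32.33 CPM in cre vehicle 1 and 10.13 CPM in cre AA14 2, and at most 0.263 CPM in the other 4. Gm2026 had 52, 107 and 36 counts with vehicle and 0 in all 3 AA14 libraries, while in the control-virus mice it had 0 counts with vehicle and 8, 9 and 126 with AA14.

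Below the vehicle libraries without overlap, as 2.54% of all genes were, lay 1 of 24 cell cycle genes, 1 of 19 clock genes and 2 of 10 corticotroph genes (Avpr1b and Hsd11b2, the latter under 1 CPM). So did 1 of 11 neuron markers, 1 of 21 genes of the GH and IGF axis and 1 of 14 other constitutively active or somatotroph receptors. Ube2c, a mitotic ubiquitin-conjugating enzyme, was at 0.870, 1.75 and 1.54 CPM with vehicle and 0.490, 0.399 and 0.451 CPM with AA14. Dbp, a clock-controlled transcription factor, was at 67.96, 62.24 and 57.57 CPM with vehicle and 38.48, 28.90 and 56.39 CPM with AA14. Avpr1b, the vasopressin receptor of corticotrophs, was at 4.06, 3.43 and 3.97 CPM with vehicle and 3.14, 3.10 and 3.34 CPM with AA14. Of the cell cycle genes 6 were positive (median -0.18), against 13 (0.03) without cre vehicle 3. Of the clock genes 8 were positive (median -0.08), against 12 (0.07) without cre vehicle 1.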
